A study of Oncorhynchus mykiss with 24 samples.

Results

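The comparison concerns the liver of first-generation hybrids between wild and domesticated rainbow trout (Oncorhynchus mykiss), called W/D, and of purely wild trout called Ws, which the study chose to match the body size of its domesticated fish. Its members were the arrays that the labels place in these groups, 6 W/D and 6 Ws fish, 12 of the 24 arrays in the series. The remaining arrays hold 6 livers of pure domesticated fish (D), of which arrays 4 and 6 carry one fish code in their titles and may be 1 animal, and 6 wild fish of the same age as the hybrids (Wa). They entered the statistical model, which estimates one spread for all 4 groups. Each fish was hybridised alone in the Cy5 channel of a salmonid oligonucleotide array against one Cy3 reference, a pool of liver RNA from size-matched wild trout, so every value below is a log2 ratio of a fish over that pool.

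The wild strain came from Pennask Lake, British Columbia, and the domesticated strain from a commercial stock selected for growth. The W/D fish were the offspring of a single D female and a single W male. That female with a D male gave the D fish, and that W male with a single W female gave the Wa fish. The Ws fish came from many randomly mated wild parents of the previous year. All groups shared the same culture conditions and were not fed on the day before sampling. Lengths and weights differed between all groups, with the hybrids smaller than the Ws fish. Genotype, family, age and body size therefore change together between W/D and Ws and cannot be told apart. Each slide carried 1 array of each group, always at the same position, so group and position on the slide cannot be told apart either.

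Liver is the organ that makes most plasma proteins, turns over lipids, sugars, nucleosides and heme, and modifies foreign and endogenous small molecules. In fish it also releases antimicrobial proteins and, in maturing females, egg proteins. Domesticated trout are known for fast growth, and the series asks how the mRNA levels of hybrids between slow- and fast-growing strains stand relative to those of wild fish.

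Of 43689 oligos on the array, 8680 were bright enough in at least 1 group and were tested (Cy5 signal of at least 300 with no quality flag on all 6 arrays of a group, and a value in every group). An oligo is called higher or lower here when limma gave an adjusted p no larger than 0.05 and the means differed 2-fold or more. The filter lets an oligo pass through the group where it is high, so counts of tested oligos are not counts of all mRNAs. Across the W/D and Ws arrays, 35.4 to 46.2% of oligos stood above local background in W/D and 39.2 to 43.0% in Ws, and the median Cy5 signal was 206 to 233 and 198 to 204. The median difference over all tested oligos was 0.024 on the log2 scale. The arrays carry names only through the study's own listings, which describe 436 spots that differed somewhere among these fish, and 389 of them were tested. These descriptions, and the functional lists built from them, are therefore no independent evidence of any direction. The scanner files pair no oligo with a sequence, so oligos without a description are named by their position on the array.

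Hybrid liver differed from Ws liver in 179 oligos, 2.06% of those tested, with 121 higher (1.39%) and 58 lower (0.668%) in W/D. Without the requirement of a 2-fold change, 272 oligos (3.13%) passed the adjusted p. The called oligos were changed by a median log2 of 1.22 where higher and -1.30 where lower, with a median standard error of 0.280. More than 4-fold differences were seen for 24 oligos, 17 higher and 7 lower. Among tested oligos with a value for all 12 fish, the values of the W/D and Ws fish did not overlap for 152 (2.02%), and 71 of the called oligos, 42 higher and 29 lower, were among them. Of the 179, 96 have a description (24.7% of the 389 described oligos tested, with 15.9% higher and 8.74% lower), 13 are listed as unknown and 70 are not listed. The 96 fall under 67 names, 44 higher and 23 lower in W/D. The counts called in the functional lists below stand beside the 24.7%, 15.9% and 8.74% of all described oligos. A count near or under those shares is no result about its list. On median-centred arrays in place of loess, the median of all tested oligos moved to 0.16 and the split to 180 higher and 37 lower, or 82.9% higher against 67.6%.

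**Figure D1:**
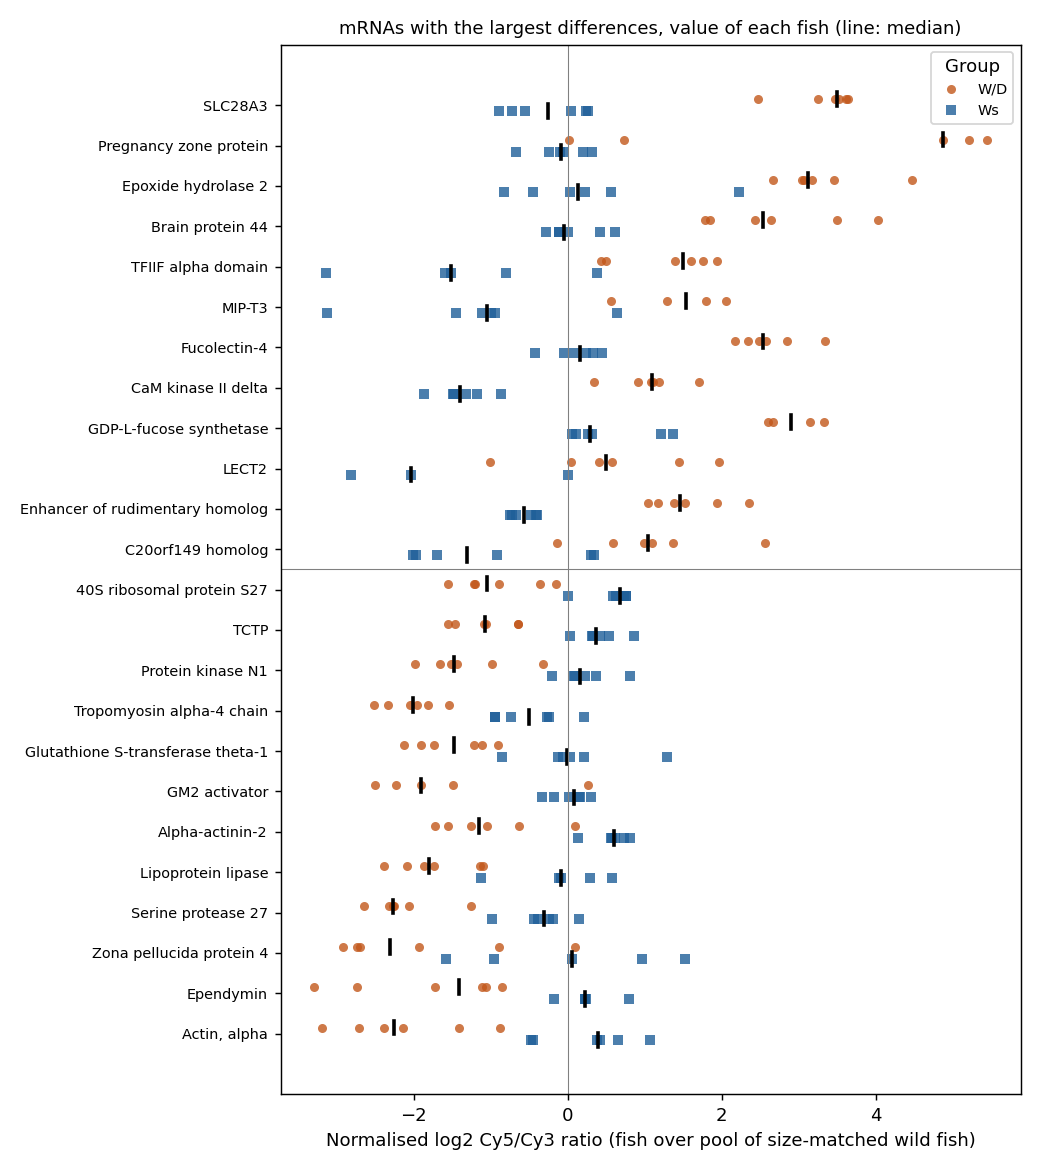
Normalised log2 Cy5/Cy3 ratio of each W/D fish (orange circles) and each Ws fish (blue squares) for the 12 described mRNAs with the largest rise (above the grey line) and the 12 with the largest fall in W/D, with vertical black lines at the group medians. SLC28A3 separates the groups by the widest margin, while for pregnancy zone protein 2 of 5 measured W/D fish lie among or close to the Ws fish.

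The mRNA with the largest difference encodes solute carrier family 28 member 3 (SLC28A3), a sodium-coupled transporter that carries purine and pyrimidine nucleosides into cells. At the more strongly changed of its spots (C216R135) the W/D fish had log2 ratios from 2.47 to 3.64 with a median of 3.49, and the Ws fish from -0.90 to 0.26 with a median of -0.26. All W/D fish lay above all Ws fish, and the log2 fold change was 3.60 (SE 0.31, limma adjusted p = 3.45e-09). W/D was thus higher in 6 of 6 pairs of same-numbered arrays, as it would be in any pairing. A second spot (C055R039) gave 2.49 to 3.76 in W/D and -0.48 to 0.68 in Ws, again without overlap, and a log2 fold change of 3.16 (SE 0.24, adjusted p = 4.70e-10). The Ws signal was weak, since the first spot stood above background on 1 of 6 Ws arrays and on all 6 W/D arrays, and its log2 fold change ranged from 2.37 (deposited ratios) to 4.63 (background subtracted) over the alternative analyses.

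Of 14 tested oligos for nucleoside transport and nucleotide metabolism, 4 were called higher, the SLC28A3 pair included, and none lower. Their median log2 fold change was 0.78, against 0.45 over all described oligos and 0.024 over all tested. Uridine phosphorylase 2, which splits uridine into uracil and ribose phosphate, ranged from 1.27 to 3.38 in W/D (median 1.98) and from -0.63 to 1.91 in Ws (median 0.43). Its groups overlapped and the log2 fold change was 1.60 (SE 0.39, adjusted p = 0.019). Nicotinamide riboside kinase 2, which feeds the vitamin nicotinamide riboside into NAD, was called higher at 1 of 3 spots, and its 3 spots gave log2 fold changes from 0.88 to 1.13. Of the 10 oligos not called, the nearest to the threshold were the other kinase spots at 0.96 and 0.88 and putative deoxyribose-phosphate aldolase at 0.87, while cytidine deaminase stood at -0.02.

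Epoxide hydrolase 2 (EPHX2), which opens epoxides of fatty acids and other small molecules to diols, was higher at both of its spots. At spot C066R156 the W/D fish lay between 2.67 and 4.47 (median 3.12) and the Ws fish between -0.82 and 2.22 (median 0.13). The groups did not overlap, although the highest Ws fish stood apart from its group and close to the hybrids, and the log2 fold change was 3.02 (SE 0.48, adjusted p = 0.00026). The second spot (C099R107) gave 2.04 (SE 0.32, adjusted p = 0.00026), also without overlap. Among 15 tested oligos for oxidation and conjugation, 3 were called higher and none lower, with a median of 0.29, below that of all described oligos. The third was the putative aldehyde dehydrogenase family 7 member A1 homolog, of a family that oxidises aldehydes to acids, at 0.20 to 2.07 in W/D (median 1.00) and -0.98 to 1.15 in Ws (median -0.39), a log2 fold change of 1.21 (SE 0.31, adjusted p = 0.023) that 8 of 30 alternative analyses did not call. Cytochrome P450 3A27 at 0.97 and mitochondrial aldehyde dehydrogenase at 0.88 came close to the threshold. Dehydrogenase/reductase SDR family member 13 stood on the other side of 0 at all 3 spots, from -0.82 to -0.30.

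Retinoid metabolism was represented by 4 oligos. Epidermal retinal dehydrogenase 2, an oxidoreductase of retinoids, was called higher at both of its spots, and at the larger one the W/D fish ranged from 1.20 to 2.30 (median 1.37) against -0.55 to 0.96 (median 0.18) in Ws. The groups did not overlap there and the log2 fold change was 1.22 (SE 0.25, adjusted p = 0.0040). Retinol dehydrogenase 12 was not called at 1.19 (adjusted p = 0.058), and retinol dehydrogenase 3 stood at 0.14.

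Lipid genes moved in both directions. Of 14 oligos for fatty acid synthesis, transport and oxidation, 2 were called higher and 3 lower, with a median of 0.47. Both that were higher encode enzymes of fatty acid breakdown. Peroxisomal 3,2-trans-enoyl-CoA isomerase, which shifts double bonds so that unsaturated fatty acids can be oxidised, ranged from 0.95 to 2.76 in W/D (median 1.57) and from -1.30 to 1.16 in Ws (median -0.13). Its groups overlapped, and the log2 fold change was 1.71 (SE 0.46, adjusted p = 0.035), a call lost in 8 of 29 alternative analyses. The beta subunit of the mitochondrial trifunctional enzyme, which carries out the last steps of each oxidation round, differed by 1.01 (SE 0.26, adjusted p = 0.026).

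The 3 lower lipid mRNAs act in lipid uptake, transport and the control of synthesis. Lipoprotein lipase, which releases fatty acids from circulating lipoproteins, lay between -2.38 and -1.09 in W/D (median -1.80) and between -1.12 and 0.57 in the 5 Ws fish with a value (median -0.08). The lowest Ws fish reached the upper hybrids, and the log2 fold change was -1.63 (SE 0.29, adjusted p = 0.0010), while a second spot gave -0.55 and was not called. Intestinal fatty acid-binding protein, an intracellular carrier of fatty acids, differed by -1.07 (SE 0.23, adjusted p = 0.0067). Sterol regulatory element-binding protein 1, a transcription factor that switches on fatty acid synthesis, differed by -1.15 (SE 0.30, adjusted p = 0.027). Genes of fatty acid synthesis itself were not called in that direction, since fatty acid desaturase 2 stood at 0.99, elongation of very long chain fatty acids protein 6 at 0.95 and cytoplasmic acetyl-coenzyme A synthetase at -0.05.

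In the sterol, bile acid and lipoprotein list 1 of 11 oligos was called higher and none lower, with a median of 0.80. The called mRNA was 7-dehydrocholesterol reductase, which makes cholesterol in the last step of its synthesis, with W/D fish between 0.90 and 1.44 (median 1.08) and Ws fish between -1.61 and 0.53 (median -0.54). The hybrids were tightly grouped and did not overlap with Ws, and the log2 fold change was 1.55 (SE 0.28, adjusted p = 0.00092). Apolipoprotein A-I-2, the main protein of high-density lipoprotein, stood just under the 2-fold threshold at 1.00 (adjusted p = 0.022), and the bile acid receptor stood at 0.83 (adjusted p = 0.028).

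Carbohydrate metabolism gave 2 large single differences and no more, among 14 tested oligos with a median of 0.57. Brain protein 44, a subunit of the mitochondrial pyruvate carrier, ranged from 1.78 to 4.03 in W/D (median 2.53) and from -0.28 to 0.62 in Ws (median -0.05). The groups did not overlap and the log2 fold change was 2.61 (SE 0.36, adjusted p = 2.72e-05), at a spot above background on 1 of 6 Ws arrays, with a range of 1.62 to 3.40 over the alternative analyses. Brain protein 44-like protein, the partner subunit of the same carrier, stood at 0.62 and 0.56 and was not called. GDP-L-fucose synthetase, which makes the fucose donor for glycoproteins, lay between 2.61 and 3.33 in the 4 W/D fish with a value (median 2.90) and between 0.05 and 1.36 in Ws (median 0.29). None of those W/D fish reached the Ws range, and the log2 fold change was 2.39 (SE 0.30, adjusted p = 2.05e-05). The glycolytic and citric acid cycle enzymes in the list, from phosphoglycerate mutase 1 at 0.80 to cytoplasmic isocitrate dehydrogenase at -0.10, were not called.

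The respiratory chain list had 1 of 13 oligos called, NADH dehydrogenase subunit 5, a mitochondrially encoded part of complex I. It lay between -1.01 and -0.14 in 5 W/D fish (median -0.68) and between 0.11 and 1.06 in 4 Ws fish (median 0.17), a log2 fold change of -1.01 (SE 0.27, adjusted p = 0.038) at the edge of the threshold, where 16 of 28 alternative analyses did not call it. The other members ranged from -0.21 to 1.08, and 10 of the 13 oligos were above 0. None of the 10 oligos for amino acid metabolism was called, with a median of 0.21 and homogentisate 1,2-dioxygenase nearest at 0.74.

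**Figure D2:**
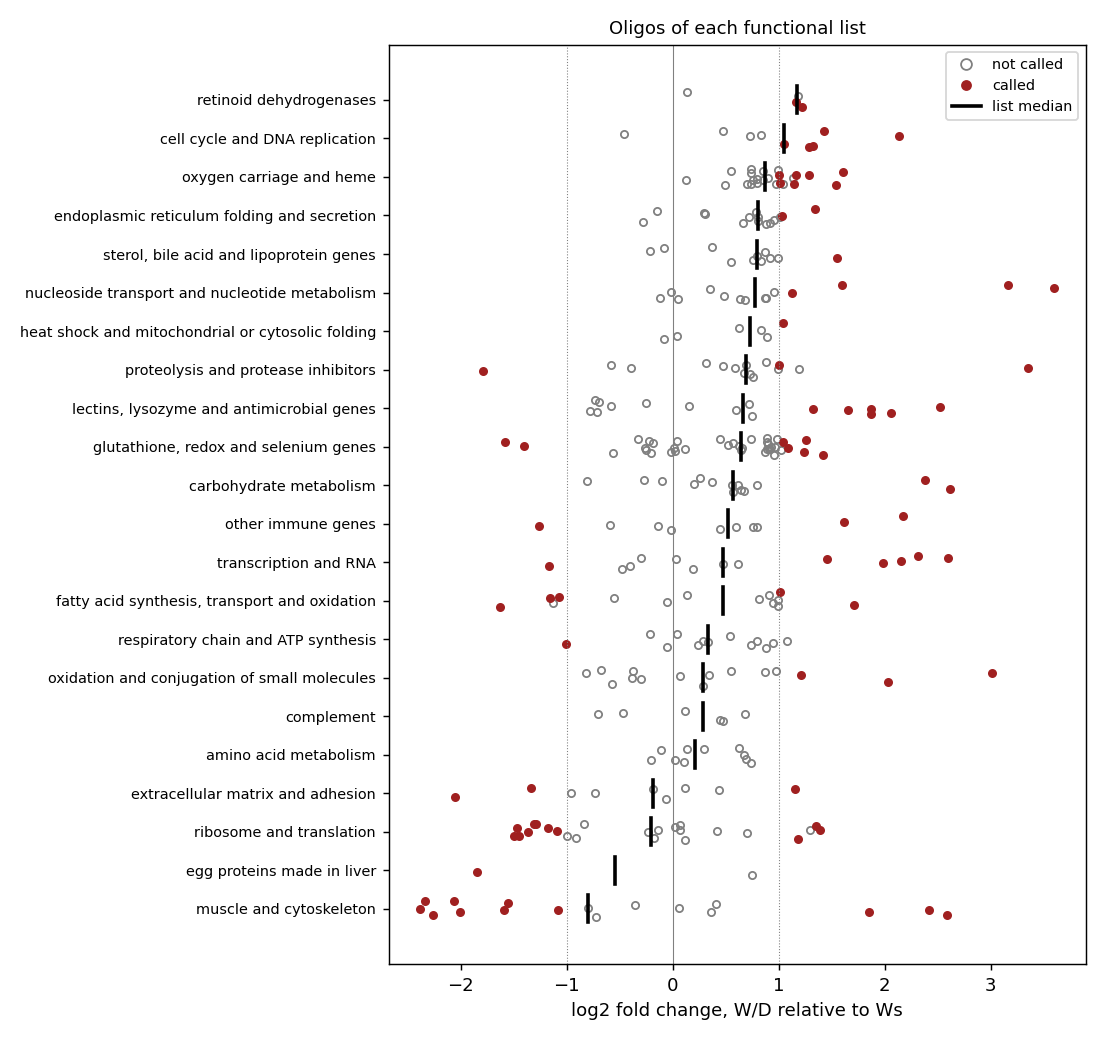
Log2 fold change of W/D relative to Ws for every tested oligo of 22 functional lists, with called oligos in red, other oligos as open grey circles, list medians as black lines and dotted lines at a 2-fold difference. Muscle and cytoskeleton and ribosome and translation hold 8 called oligos each to the left, most of which share a description within their list. Oxygen carriage and heme lies wholly to the right of 0.

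Immune and antimicrobial mRNAs made by the liver included several of the most separated oligos. Of 16 oligos for lectins, lysozyme and antimicrobial proteins, 6 were called higher and none lower, with a median of 0.66. Fucolectin-4, a secreted fucose-binding lectin first known from eel, ranged from 2.17 to 3.34 in W/D (median 2.53) and from -0.42 to 0.45 in Ws (median 0.16). The groups did not overlap and the log2 fold change was 2.52 (SE 0.22, adjusted p = 3.80e-09), at a spot above background on 2 of 6 Ws arrays. Its relative fucolectin-6 differed by 1.87 (SE 0.26, adjusted p = 3.04e-05), also without overlap. Lysozyme C II, which cleaves the cell wall of bacteria, was called higher at all 3 spots, by 1.32 to 1.87.

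The antimicrobial peptide LEAP-2 varied more. Its W/D fish ranged from 0.07 to 3.84 (median 3.39) and its Ws fish from -1.40 to 2.30 (median 1.06), a log2 fold change of 2.06 (SE 0.55, adjusted p = 0.033). A single hybrid lay far below the other five, and 10 of 28 alternative analyses did not call the difference. Galectin-9 and galectin-2, which bind galactosides, stood below 0 at all of their 5 spots, from -0.78 to -0.58, and were not called. None of the 6 complement oligos was called, with values from -0.70 to 0.68 and spots of complement C3-1 at both ends.

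Among 10 oligos for other immune functions, 2 were called higher and 1 lower. The p100 subunit of NF-kappa-B, a regulator of immune gene transcription, ranged from 0.82 to 2.21 in W/D (median 1.65) and from -0.72 to 1.44 in Ws (median -0.48), a log2 fold change of 1.62 (SE 0.33, adjusted p = 0.0053). Only the highest Ws fish reached into the hybrid range. Leukocyte cell-derived chemotaxin 2, a liver protein that attracts neutrophils, lay between -1.01 and 1.96 in W/D (median 0.49) and at -2.80, -2.03 and 0.0081 in the 3 Ws fish with a value. Its log2 fold change was 2.18 (SE 0.61, adjusted p = 0.048), and its second tested spot gave 0.75 and was not called. This call was lost in 17 of 28 alternative analyses. The cytotoxic and regulatory T-cell molecule, a surface receptor of lymphocytes, was lower by a log2 fold change of -1.26 (SE 0.30, adjusted p = 0.017) with no overlap of the fish. The immunoglobulin and B-cell linker oligos, 5 in all, were not called, with a mean log2 ratio per fish of 0.48 to 0.88 in W/D and 0.06 to 0.70 in Ws.

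Pregnancy zone protein, a protease inhibitor of the alpha-2-macroglobulin family, had the second largest log2 fold change among described mRNAs, 3.35 (SE 0.79, adjusted p = 0.016). The hybrids were widely split. The 5 W/D fish with a value had log2 ratios of 0.017, 0.74, 4.87, 5.21 and 5.44, and the Ws fish lay between -0.68 and 0.31. A total of 3 hybrids were thus far above every Ws fish, 1 was slightly above and 1 lay within their range. A split was also seen in D, where arrays 1 and 4 stood at 4.05 and 4.02 and the other four between -0.64 and 0.87, whereas the Wa fish ranged from -0.29 to 0.84. Without W/D fish 2 or fish 6, both among the 3 high hybrids, the adjusted p was 0.055 and 0.054. Ovostatin, an inhibitor of the same family, was higher by 1.01 (SE 0.26, adjusted p = 0.030).

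The list of proteolysis and protease inhibitors held these 2 higher oligos and 1 lower among 15, with a median of 0.69. The lower mRNA was serine protease 27, a trypsin-like enzyme, with W/D fish between -2.64 and -1.26 (median -2.26) and Ws fish between -0.98 and 0.14 (median -0.31). The groups did not overlap, and the log2 fold change was -1.79 (SE 0.24, adjusted p = 2.14e-05), at a spot above background on 4 of 6 W/D arrays. Proteasome subunits ranged from -0.58 to 0.76 and were not called.

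In the list for oxygen carriage and heme all 24 tested oligos had a log2 fold change above 0, against 256 of 389 over all described oligos. Of the 24, 7 were called. Hemoglobin spots made up 19 of the 24, so these are not 24 separate mRNAs. With 1 value for each of 10 mRNAs, 3 were called higher and none lower, with a median of 0.84. Heme oxygenase, which breaks heme down, ranged from -0.08 to 2.17 in W/D (median 0.62) and from -1.34 to 0.59 in Ws (median -0.97), a log2 fold change of 1.61 (SE 0.36, adjusted p = 0.011). A single Ws fish at 0.59 made the groups overlap. Hemoglobin subunit beta-1 was called higher at 3 of 6 tested spots and hemoglobin subunit beta at 2 of 10, with log2 fold changes over all 16 from 0.70 to 1.54. At the largest of these (C060R037) 4 W/D fish ranged from -0.12 to 1.08 (median 0.73) and the Ws fish from -1.25 to -0.48 (median -1.05), and the difference was 1.54 (SE 0.35, adjusted p = 0.011). The nonspecific form of 5-aminolevulinate synthase, the first enzyme of heme synthesis, was higher by 1.15 (SE 0.25, adjusted p = 0.0079), whereas coproporphyrinogen III oxidase, a later enzyme of that path, stood at 0.80 and was not called.

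Hemoglobins are made by red blood cells, and fewer cells of a type and less RNA per cell cannot be told apart in whole liver. Over the 19 tested red blood cell marker spots the mean log2 ratio per fish was -0.15 to 0.71 in W/D (median 0.16) and -1.08 to -0.16 in Ws (median -0.68). The lowest W/D fish stood just above the highest Ws fish, and the part of blood content in the heme list was not tested.

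Antioxidant and glutathione genes were called in both directions, 5 higher and 2 lower of 38 oligos, with a median of 0.65. Both are smaller shares than the 62 higher and 34 lower of all 389 described oligos. Spots of Cu-Zn superoxide dismutase made up 14 of the 38, and with 1 value for each of 14 mRNAs 1 was higher and 1 lower, with a median of 0.24. Methionine-R-sulfoxide reductase B1, a repair enzyme for oxidised methionine, was higher at all 3 spots. At its largest the W/D fish ranged from -0.11 to 2.91 (median 1.42) and the Ws fish from -0.31 to 0.34 (median 0.10), a log2 fold change of 1.42 (SE 0.32, adjusted p = 0.010). The hybrids were spread far more widely than the Ws fish there. Cu-Zn superoxide dismutase, which removes superoxide, was called at 2 of 14 spots, with all 14 between 0.52 and 1.24.

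The opposite direction was seen for glutathione S-transferase theta-1, a conjugating enzyme, at both of its spots. The W/D fish lay between -2.13 and -0.90 at the larger one (median -1.48) and the Ws fish between -0.86 and 1.29 (median -0.01), so that the groups just missed each other. Its log2 fold change was -1.58 (SE 0.26, adjusted p = 0.00045) and that of the other spot -1.40 (SE 0.30, adjusted p = 0.0067). Glutathione transferase omega-1 stayed between -0.20 and 0.12 at 6 spots, while glutathione peroxidase 2 stood at 0.96 and 0.92 and glutathione S-transferase kappa 1 at 0.97 and 0.90, none of them called.

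Protein folding and secretion was represented by 15 oligos, of which 2 were called higher and none lower (median 0.80). Both were spots of endoplasmin, the main chaperone of the HSP90 family in the endoplasmic reticulum, whose 5 spots gave 0.80 to 1.35. At the largest the W/D fish ranged from -0.085 to 1.10 (median 0.89) and the Ws fish from -1.19 to -0.092 (median -0.68), without overlap by a narrow margin, and the log2 fold change was 1.35 (SE 0.22, adjusted p = 0.00026). Calreticulin stood at 0.80 and 0.79 and solute carrier family 35 member B1 at 0.92, not called. In the short list of heat shock and other folding proteins 1 of 6 was called, mitochondrial peptidyl-prolyl cis-trans isomerase at 0.63 to 1.97 in W/D (median 0.93) and -0.56 to 0.66 in Ws (median -0.08), a log2 fold change of 1.04 (SE 0.28, adjusted p = 0.038) that 12 of 29 alternative analyses did not call. Heat shock cognate 70 kDa protein stood at 0.04. Serum albumin 2, the defining hepatocyte product and the single called spot of 3 hepatocyte markers, was higher by 1.75 (SE 0.32, adjusted p = 0.0013), while fibrinogen beta chain stood at -0.84 and was not called.

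Translation mRNAs gave 3 higher and 8 lower of 24 oligos, with a median of -0.20. With 1 value for each of 14 mRNAs, 1 was higher and 2 lower, with a median of 0.045. The lower oligos were 7 of the 8 tested spots of translationally-controlled tumor protein (TCTP), an abundant growth-related protein, and 40S ribosomal protein S27, of the small ribosomal subunit. TCTP spots ranged from -1.49 to -0.997, and at the largest (C179R169) the W/D fish lay between -1.56 and -0.65 (median -1.08) and the Ws fish between 0.03 and 0.86 (median 0.37). Every hybrid was below every Ws fish, and the log2 fold change was -1.49 (SE 0.21, adjusted p = 4.00e-05). S27 ranged from -1.56 to -0.15 in W/D (median -1.04) and from 0.0017 to 0.76 in Ws (median 0.68), a log2 fold change of -1.47 (SE 0.26, adjusted p = 0.00092). In the Cy5 channel alone its adjusted p was 0.069. The 3 higher oligos were all spots of subunit I of eukaryotic translation initiation factor 3, which helps to load mRNA on the ribosome, at 1.19 to 1.39. The other ribosomal protein spots ranged from -0.91 to 1.29 and were not called.

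**Figure D3:**
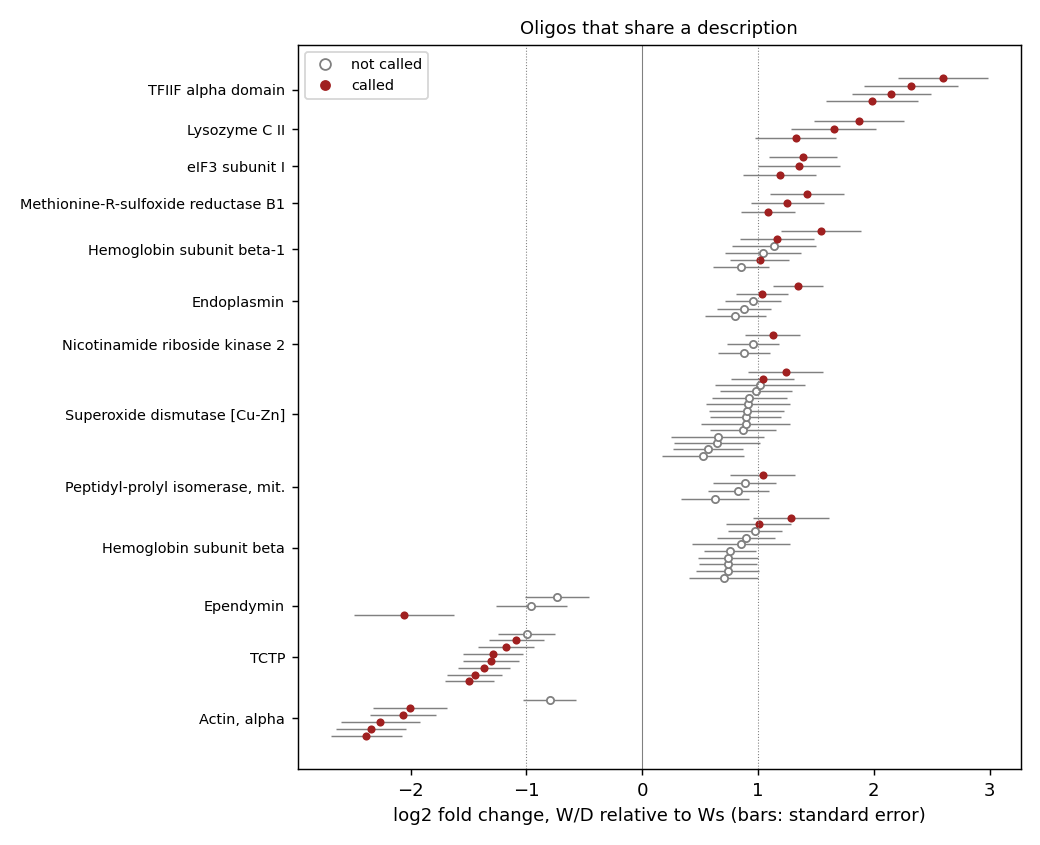
Log2 fold change with its standard error for every tested oligo of the 13 called mRNAs that have at least 3 tested oligos, with called oligos in red. All oligos of a name lie on the same side of 0, and 1 ependymin and 1 alpha actin oligo stand apart from the others of their name.

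The cell cycle list had 5 of 9 oligos called higher and none lower, with a median of 1.05. Enhancer of rudimentary homolog, a small conserved nuclear protein, ranged from 1.05 to 2.35 in W/D (median 1.46) and from -0.74 to -0.40 in Ws (median -0.57). The groups did not overlap, and the log2 fold change was 2.14 (SE 0.25, adjusted p = 2.67e-06). The spot stood above background on 1 of 6 Ws arrays, so the Ws values lie near the floor, and the size of the change ranged from 1.02 to 3.10 over the alternative analyses. Replication factor C subunit 3, part of the clamp loader in DNA synthesis, ranged from 0.67 to 1.75 in W/D (median 1.38) and from -0.44 to 0.18 in Ws (median -0.09), a log2 fold change of 1.42 (SE 0.26, adjusted p = 0.0013) without overlap. Protein regulator of cytokinesis 1 differed by 1.33, the mitotic kinase PLK1 by 1.29 and cyclin-E1, which acts at the start of DNA synthesis, by 1.05, all with overlapping fish. Septin-7 stood at 0.83 and ubiquitin-conjugating enzyme E2 C at 0.73 and 0.48, not called, and the checkpoint protein RAD1 stood at -0.46.

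Transcription and RNA mRNAs included 5 higher and 1 lower of 13 oligos. The 4 spots described as the alpha domain of TFIIF, a general factor of RNA polymerase II, carry no gene symbol in the listing. All were called, at 1.99 to 2.60. At the largest (C182R143) the W/D fish ranged from 0.43 to 1.93 (median 1.50) and 5 Ws fish from -3.13 to 0.39 (median -1.51), a log2 fold change of 2.60 (SE 0.39, adjusted p = 0.00012). The highest Ws fish nearly reached the lowest hybrid. At C063R163 the groups did not overlap either. At C256R062 and C054R169 they did, with Ws fish up to 1.07 and 2.10 and hybrids down to 0.55 and 0.43. Heterogeneous nuclear ribonucleoprotein Q, an RNA-binding protein, lay between 1.30 and 2.46 in W/D (median 1.55) and between -0.32 and 1.04 in Ws (median 0.20), a log2 fold change of 1.46 (SE 0.35, adjusted p = 0.019). The U3 small nucleolar RNA-associated protein 14 homolog A, a ribosome assembly factor, was lower, with a log2 fold change of -1.17 (SE 0.26, adjusted p = 0.0082).

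Cytoskeletal and muscle mRNAs were called in both directions, with 3 oligos called higher and 8 lower of 17 and a median of -0.80. The 2 spots described only as microtubule-binding protein MIP-T3, without a gene symbol in the listing, were both called higher. Mean ratios in W/D, Ws, Wa and D were 1.43, -1.16, -2.76 and 1.59 at C169R119. They were close to those of TFIIF spot C182R143, at 1.27, -1.33, -2.53 and 1.77. Whether the spots of these names measure separate mRNAs was not tested. At the larger one 4 W/D fish ranged from 0.56 to 2.06 (median 1.54) and the Ws fish from -3.12 to 0.64 (median -1.05), a log2 fold change of 2.59 (SE 0.44, adjusted p = 0.00070). The delta chain of calcium/calmodulin-dependent protein kinase II, a calcium-activated kinase, ranged from 0.35 to 1.70 in W/D (median 1.10) and from -1.87 to -0.87 in Ws (median -1.39), with no overlap and a log2 fold change of 2.42 (SE 0.22, adjusted p = 3.43e-08).

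The lower cytoskeletal oligos were led by sarcomeric actin. Alpha actin, the thin filament protein of striated muscle, was called lower at 5 of 6 spots, with all 6 between -2.38 and -0.80. At the largest (C185R005) the W/D fish ranged from -3.18 to -0.88 (median -2.26) and the Ws fish from -0.48 to 1.07 (median 0.40), a log2 fold change of -2.38 (SE 0.31, adjusted p = 1.71e-05). Alpha-actinin-2, which cross-links those filaments, lay between -1.72 and 0.09 in W/D (median -1.16) and between 0.13 and 0.80 in Ws (median 0.60), a log2 fold change of -1.59 (SE 0.33, adjusted p = 0.0053), and it stood above background on 1 of 6 W/D arrays and 5 of 6 Ws arrays. At C185R005 and at the alpha-actinin-2 spot the groups did not overlap, at the latter by a narrow margin.

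Tropomyosin alpha-4 chain, which is not confined to muscle, ranged from -2.51 to -1.54 in W/D (median -2.004) and from -0.94 to 0.21 in Ws (median -0.50), a log2 fold change of -1.55 (SE 0.26, adjusted p = 0.00046). Radixin, which ties actin to the cell membrane, differed by -1.08 (SE 0.24, adjusted p = 0.0076). The 7 striated muscle marker spots, all of alpha actin and alpha-actinin-2, had a mean log2 ratio per fish of -2.51 to -0.65 in W/D (median -1.80) and -0.20 to 0.80 in Ws (median 0.29), and 6 of the 7 were called lower. The part of carried-over muscle in these values was not tested.

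Matrix and adhesion mRNAs gave 1 higher and 2 lower of 9 oligos. Collagen alpha-1(I) chain, the main fibrillar collagen, was higher by 1.15 (SE 0.24, adjusted p = 0.0067). Ependymin, a secreted glycoprotein first described in fish brain, ranged from -3.29 to -0.85 in W/D (median -1.41) and from -0.18 to 0.80 in 5 Ws fish (median 0.23) at its largest spot, a log2 fold change of -2.06 (SE 0.43, adjusted p = 0.0067). Its other spots, at -0.96 and -0.74, were not called. Thrombospondin-3b, a calcium-binding matrix protein, lay between -1.12 and -0.65 in 5 W/D fish (median -0.92) and between -0.39 and 0.90 in Ws (median 0.56), a log2 fold change of -1.33 (SE 0.27, adjusted p = 0.0043).

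Zona pellucida sperm-binding protein 4, an egg envelope protein that fish liver can make, was the one called oligo of 2 for egg proteins. It ranged from -2.91 to 0.10 in W/D (median -2.31) and from -1.58 to 1.52 in 5 Ws fish (median 0.05), a log2 fold change of -1.85 (SE 0.52, adjusted p = 0.049). Both groups were widely spread, the call was lost in 13 of 28 alternative analyses, and fish-egg lectin stood at 0.75, not called. The sex of the fish is not given in the sources used here.

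Outside the functional and marker lists, the largest described differences were in 3 mRNAs. The UPF0362 protein C20orf149 homolog ranged from -0.14 to 2.56 in W/D (median 1.04) and from -2.002 to 0.34 in Ws (median -1.31), a log2 fold change of 2.07 (SE 0.45, adjusted p = 0.0080). Serine/threonine-protein kinase N1 ranged from -1.98 to -0.32 in W/D (median -1.47) and from -0.20 to 0.81 in Ws (median 0.16), a log2 fold change of -1.54 (SE 0.27, adjusted p = 0.00089). Ganglioside GM2 activator, a cofactor of lysosomal glycolipid breakdown, lay between -2.50 and 0.27 in 5 W/D fish (median -1.90) and between -0.34 and 0.31 in Ws (median 0.08), a log2 fold change of -1.59 (SE 0.31, adjusted p = 0.0040), with 1 hybrid inside the Ws range.

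The 3 called oligos without a usable description that changed most were C110R167, C094R157 and C179R087. C110R167 lay between -3.90 and -2.72 in W/D (median -3.004) and between -3.39 and 0.98 in Ws (median 0.45), a log2 fold change of -2.56 (SE 0.54, adjusted p = 0.0060). All hybrids were low there, and 2 of the Ws fish, at -3.39 and -2.72, were as low. This spot stood above background on 2 of 6 W/D arrays and on all 6 Ws arrays. Its W/D values thus lie near the floor. C094R157 had a value in 3 W/D fish, from 1.02 to 2.14, against -1.11 to 0.32 in Ws, a log2 fold change of 1.82 (SE 0.29, adjusted p = 0.00047). C179R087 ranged from -1.82 to -0.65 in W/D (median -1.28) and from 0.17 to 0.95 in Ws (median 0.44), a log2 fold change of -1.77 (SE 0.37, adjusted p = 0.0065). A further oligo, C113R119, singled out after its values were seen, was the only called one above background on no Ws array. It stood above background on 4 of 6 W/D arrays, and only 3 Ws fish had a value that passed the quality tests. Its Cy5 level was at least 2.48-fold higher in W/D, computed over all arrays of both groups, spots that failed those tests included. Ws levels were raised to the lowest signal above background on their array only where they fell below it.

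**Figure D4:**
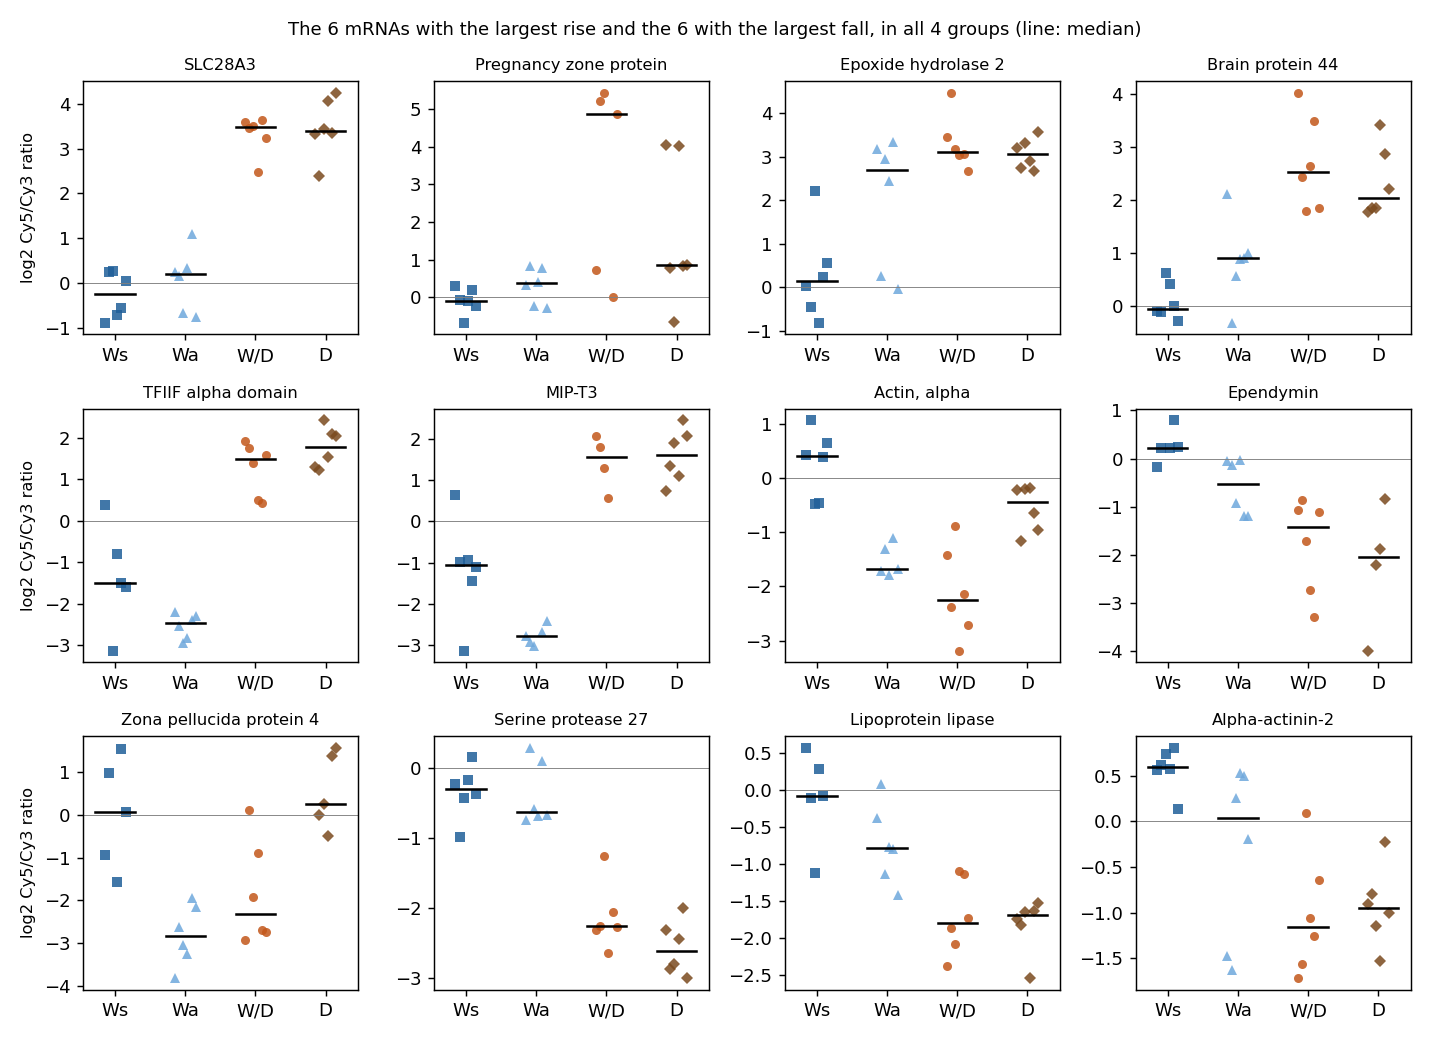
Log2 Cy5/Cy3 ratio of each fish in Ws (dark blue squares), Wa (light blue triangles), W/D (orange circles) and D (brown diamonds) for the 6 described mRNAs with the largest rise and the 6 with the largest fall in W/D relative to Ws, with lines at the medians. At the plotted spots of SLC28A3 (C216R135) and TFIIF (C182R143) every measured W/D and D fish lies above every Ws and Wa fish. Alpha actin and zona pellucida protein 4 have their lowest medians in W/D and Wa.

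The other groups place these differences beside those of fish of other ages and genotypes. In the same model 77 oligos (0.887%) were called between Wa and Ws, and 299 (3.44%) between D and Ws. The hybrids differed from Wa in 81 (0.933%) and from D in 65 (0.749%). With D arrays 4 and 6 averaged as 1 fish, 273 were called between D and Ws and 49 between W/D and D. These comparisons share fish with W/D relative to Ws, so only the values of each are given side by side. Wa relative to Ws holds age, size and family differences within wild trout. W/D relative to Wa compares fish of one age, each group from a single family. Genotype, mother and body size differ together there and cannot be told apart.

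For some mRNAs the hybrids stood apart from both wild groups. SLC28A3 (C216R135) ranged from -0.76 to 1.09 in Wa and from 2.40 to 4.26 in D. The log2 fold change of W/D relative to Wa was 3.26 (adjusted p = 1.93e-08), that of Wa relative to Ws was 0.34 (adjusted p = 0.64) and that of W/D relative to D was -0.15 (adjusted p = 0.90). Fucolectin-4 gave 2.41 against Wa (adjusted p = 1.72e-08) and 0.21 against D (adjusted p = 0.77), and calcium/calmodulin-dependent protein kinase II delta chain gave 2.50 against Wa (adjusted p = 1.93e-08). Serine protease 27 showed this in the other direction, at -1.74 against Wa (adjusted p = 2.17e-05), -0.04 for Wa relative to Ws (adjusted p = 0.96) and 0.44 against D (adjusted p = 0.47). TCTP (C179R169) and glutathione S-transferase theta-1 (C202R025) were lower than in Wa too, by log2 fold changes of -0.97 and -1.49 (adjusted p = 0.013 and 0.0013).

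For other mRNAs the Wa mean lay below that of Ws, away from the hybrids. TFIIF alpha domain (C182R143) ranged from -2.94 to -2.20 in Wa, with Wa relative to Ws at -1.21 (adjusted p = 0.11) and W/D relative to Wa at 3.80 (adjusted p = 5.02e-08). MIP-T3 (C169R119) was lower in Wa than in Ws by a log2 fold change of -1.60 (adjusted p = 0.046), with W/D relative to Wa at 4.19 (adjusted p = 7.85e-07). The test of Wa relative to Ws is also the test of whether W/D differs from them by unequal amounts. Its outcome depended on the spot for both names. It passed at MIP-T3 C169R119 and at TFIIF C256R062 (-1.61, adjusted p = 0.037). It missed at MIP-T3 C223R094 (-0.82, adjusted p = 0.24) and at TFIIF C182R143. The remaining TFIIF spots C063R163 and C054R169 missed too, at -0.90 and -0.64 (adjusted p = 0.18 and 0.46). Lysozyme C II (C099R149) gave the same order of means, at 2.89 against Wa (adjusted p = 2.01e-05) and -1.01 for Wa relative to Ws (adjusted p = 0.19).

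For a further set, Wa fish of the hybrids' own age lay near the hybrids. Alpha actin (C185R005) ranged from -1.79 to -1.11 in Wa, with Wa relative to Ws at -1.78 (adjusted p = 0.0029) and W/D relative to Wa at -0.60 (adjusted p = 0.46). Zona pellucida sperm-binding protein 4 gave -2.81 for Wa relative to Ws (adjusted p = 0.0040) and 0.96 for W/D relative to Wa (adjusted p = 0.44). Uridine phosphorylase 2 gave 1.92 for Wa relative to Ws (adjusted p = 0.0076) and -0.32 for W/D relative to Wa (adjusted p = 0.81). The C20orf149 homolog gave 2.00 (adjusted p = 0.019) and 0.07 (adjusted p = 0.97), 7-dehydrocholesterol reductase 1.17 (adjusted p = 0.024) and 0.38 (adjusted p = 0.62), and epidermal retinal dehydrogenase 2 (C003R092) 1.02 (adjusted p = 0.027) and 0.20 (adjusted p = 0.81). Likewise Wa relative to Ws gave 1.31 for the aldehyde dehydrogenase family 7 homolog (adjusted p = 0.023), 1.29 for methionine-R-sulfoxide reductase B1 (C076R123, adjusted p = 0.034), -1.10 for thrombospondin-3b (adjusted p = 0.024) and -1.21 for ganglioside GM2 activator (adjusted p = 0.037). In each of these Wa differed from Ws in the direction in which W/D did, and a difference between W/D and Wa was not shown.

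Epoxide hydrolase 2 differed between its spots. At C066R156 it stood between these patterns, with Wa from -0.040 to 3.33. The log2 fold change there was 1.73 for Wa relative to Ws (adjusted p = 0.067) and 1.29 for W/D relative to Wa (adjusted p = 0.23). The Wa fish were split at that spot, with 4 of them at 2.45 to 3.33 and the others at -0.040 and 0.26. At C099R107 the hybrids stood apart from Wa, by 1.48 (adjusted p = 0.013), and Wa relative to Ws was 0.55 (adjusted p = 0.43). Differences from D included heme oxygenase, higher in the hybrids by 1.96 (adjusted p = 0.0041). Protein regulator of cytokinesis 1 and PLK1 were higher by 1.63 and 1.58 (adjusted p = 0.0053 and 0.0095). Alpha actin (C185R005) was lower at -1.55 (adjusted p = 0.0086), zona pellucida sperm-binding protein 4 at -2.37 (adjusted p = 0.022) and C110R167 at -3.41 (adjusted p = 0.00062). C179R087 gave -1.61 (adjusted p = 0.027), and -1.40 (adjusted p = 0.081) with D arrays 4 and 6 averaged.

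Each slide held all groups, and same-numbered arrays were taken to share a slide, which the sample labels do not state. On that basis the difference could also be taken within slides. Of 154 called oligos with a value for both fish on all 6 slides, 122 had one sign on every slide. Over all tested oligos with such values the count was 694 of 7518 (9.23%). The share among the called follows in part from their having been called on the same values. Heme oxygenase was higher in W/D on 6 of 6 slides, by 0.33 to 3.16. Pairing its fish otherwise could change that count, since the lowest hybrid (-0.08) lay below the highest Ws fish (0.59). Alpha actin (C185R005) was lower on 6 of 6, by -3.45 to -0.40, a count that any pairing would give because its groups did not overlap. LEAP-2 was higher on 5 of 6 slides and zona pellucida sperm-binding protein 4 lower on 4 of 5.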

How the data were processed

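Liver RNA of 24 rainbow trout was measured on 2-colour 44K salmonid oligo arrays, 4 arrays per slide, with each fish in Cy5 and a pool of size-matched wild trout in Cy3 on every array and no dye swap. The intensity values used are the ImaGene spot signal means and local backgrounds of both channels as deposited, not yet normalised by the authors. The deposited log2 ratios were made by the authors in GeneSpring, with a threshold of 1, LOWESS normalisation and centring of each oligo on the median of all samples, and served as an alternative (across oligos, r with the rebuilt ratios was 0.859 to 0.926).

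Signals were corrected by normexp with an offset of 50 on the background median, normalised by loess within each array (limma 3.58.1, R 4.3.3), and fitted with 4 group means and no slide term. P-values were adjusted by Benjamini-Hochberg over all 8680 tested oligos. Control spots were left out. Spots that failed the image software's quality tests were set to missing (1.95% of values on the 12 arrays), except saturated ones. Such failures were more frequent on Ws arrays (1013 to 1202 oligos each) than on W/D arrays (494 to 667), saturated spots included. With this flag disregarded, 188 of 9307 oligos were called. Spots called empty by the software counted as not passing the filter but kept their value. Arrays carry no read depth, and the number of fish limits precision. The titles give each W/D and Ws array its own fish, and D arrays 4 and 6 share a fish code (r = 0.617 between them, against 0.396 to 0.642 over all pairs of D arrays). The W/D fish are full siblings. The p-values rest on the spread among fish within the 4 groups, to which the hybrids add only that of 1 family.

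Every called described oligo could be named. Values of all fish were given for the 12 described mRNAs with the largest rise, the 12 with the largest fall, the 2 largest in each functional list, and the 3 largest oligos without a description. The members, the functional and marker lists and the alternatives were chosen with earlier results of these data known. Names come from the study's listings of differing mRNAs, whose values were not used, and no list was tested as a set. Of the steps above, only the model fit and the calling rule were run on simulated log2 ratios. Background correction, normalisation, quality flags and the filter were not simulated. Same-numbered arrays were taken to share a slide, which the sample labels do not state. Their deviations from the group means correlated by -0.077 to 0.11 between W/D and Ws, so the numbers were not treated as pairs. Any 2 of the 12 arrays correlated by -0.012 to 0.56 over the tested oligos.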

Additional observations from a re-analysis of the deposited data

Results flagged for a closer look

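In 8 of 84 groups of named oligos (9.52%) 1 fish stood apart from the rest of its group by Dixon's ratio at the 95% level, where chance gives about 1 in 20. In W/D, fish 4 was lowest for SLC28A3 (C216R135) at 2.47 against 3.24 for the next fish, fish 3 was lowest for LEAP-2 at 0.067 against 2.61, and fish 1 was highest for epidermal retinal dehydrogenase 2 (C003R092) at 2.30 against 1.46. In Ws, fish 1 was highest for heme oxygenase at 0.59 against -0.76, and fish 6 was highest for NADH dehydrogenase subunit 5 at 1.06 against 0.22, among 4 measured fish. The other 3 were the lowest Ws fish of their mRNA, fish 5 for thrombospondin-3b at -0.39 against 0.50, fish 4 for 40S ribosomal protein S27 at 0.0017 against 0.58, and fish 6 for alpha-actinin-2 at 0.13 against 0.56.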

How the results depend on the processing

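Over 30 alternatives, the 43 named oligos kept their direction in all 1231 comparisons made and their call in 1129. Not every alternative could test them all. With a Cy5 signal of at least 300 on all 12 arrays, 16 of the 43 were tested, and on all 24 arrays 11. The others were too dim on some array to enter those filters. The 102 lost calls included 17 for leukocyte cell-derived chemotaxin 2, 16 for NADH dehydrogenase subunit 5, 13 for zona pellucida sperm-binding protein 4, 12 for mitochondrial peptidyl-prolyl cis-trans isomerase and 10 for LEAP-2. Without Ws fish 2, limma's adjusted p for uridine phosphorylase 2 was 0.058. Without Ws fish 5, limma's adjusted p for heterogeneous nuclear ribonucleoprotein Q was 0.055. Pregnancy zone protein was not called by the methods' test (adjusted p = 0.089).

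The counts moved with the filter, the threshold and the reference, and the causes were not tested beyond fewer oligos entering. Without background correction 113 oligos were called (73 higher). With a Cy5 signal of at least 300 on all 12 arrays 70 of 5386 oligos were called (44 higher, 26 lower, 112 by adjusted p alone). On all 24 arrays 51 of 4322 were called (32, 19 and 89). These shares, 1.3% and 1.18%, lie below the 2.06% of the main analysis. Only 70 of the 179 oligos called there passed the filter on 12 arrays. At an adjusted p of 0.01, 87 were called (53, 34 and 90 by p alone). W/D ratios tested against the pool, with the Ws arrays left out, gave 337 (215, 122 and 2112), a test without the spread of Ws fish. Without a dye swap, any offset between Ws fish and the pool also enters that test. At C155R079, for example, the Ws fish themselves lay between -1.87 and -0.87. Median centring gave 37 lower oligos. Leaving out 1 fish gave 130 to 215 called, 82 to 151 higher, 46 to 64 lower and 160 to 337 by adjusted p alone, where the lowest were without Ws fish 5 (160) and W/D fish 4 (170). The methods' test called 139 and the deposited ratios 166.

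With the array number as a block in place of the slide, 186 oligos were called (128 higher, 58 lower), 171 of them among the 179. None of the 43 named oligos lost its call. W/D arrays matched best with the Ws array of their own number for 2 of 6 numbers. Of 2 alternatives chosen after seeing the data, setting saturated values to missing left 179 called, and averaging D arrays 4 and 6 as 1 fish gave 181, with leukocyte cell-derived chemotaxin 2 the only named call lost. With 1 value per description, 139 of 8569 were called (95 higher, 44 lower), and the heat shock and egg protein lists, with 1 called oligo each before, had none. On median-centred arrays 13 of 24 heme and 7 of 15 endoplasmic reticulum oligos were called higher, from 7 and 2.

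Dim signal limits the low side, since 1 called oligo was above background on no Ws array and SLC28A3, brain protein 44, enhancer of rudimentary homolog and fucolectin-4 on 1 or 2 of 6, and 35.4 to 46.2% of oligos were above background on a W/D array and 39.2 to 43.0% on a Ws array. Among oligos lower in W/D, alpha-actinin-2 stood above background on 1 of 6 W/D arrays, C110R167 on 2 and serine protease 27 on 4.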
